A study of Homo sapiens with 17 samples.

Results

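The promoters of NKX2-4, NKX2-2, PAX1 and FOXA2 lie within chromosome 20 between 21 and 23 Mb (GRCh38), and their contacts with the rest of the chromosome were compared between naive and primed human pluripotent stem cells. The lists of promoter interactions mark which restriction fragments were captured but carry no gene names, so a captured (baited) HindIII fragment was assigned to a gene when it overlapped the start site of an annotated transcript or the 1000 bp upstream of it. This gave 4 baited fragments, 1 for each gene, and these were also the only baited fragments with a listed interaction in the interval. They are 4 of the 15982 baited fragments with at least 1 listed interaction in either state. Baited fragments without any are not in the lists, so every share and median over baited fragments below leaves them out. Together they took part in 127 of the 128955 interactions listed in either state and reached 66 partner fragments, all on chromosome 20.

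All samples came from one embryonic stem cell line, WA09/H9 NK2, so the states are isogenic but rest on a single line. Naive cells were grown in t2iL+Gö (the inhibitors PD0325901, CHIR99021 and Gö6983 with LIF) and primed cells in TeSR-E8. Contacts were measured by promoter-capture Hi-C (PCHi-C; 2 biological replicates per state, combined by the authors into 1 list) and by Hi-C without capture (1 library per state). H3K4me1, a histone mark found at enhancers and around promoters, was profiled by CUT&RUN, an antibody-guided cleavage of chromatin in nuclei, with 2 libraries from naive and 3 from primed cells. No expression values were used here, so the states were not checked against marker genes. Because each state has 1 combined PCHi-C list and 1 Hi-C library, differences between states in contacts have no replicate check and were not tested, whereas H3K4me1 was tested.

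By the GENCODE v44 annotation, NKX2-4 lies at chr20:21395365-21397526 (minus strand) and its baited fragment at chr20:21393666-21400161. NKX2-2 lies at chr20:21511017-21514064 (minus strand) and its fragment at chr20:21511073-21518955. PAX1 lies at chr20:21705659-21718481 (plus strand) and its fragment at chr20:21698395-21707625. FOXA2 lies at chr20:22580998-22585455 (minus strand) and its fragment at chr20:22577346-22585997. Each fragment thus holds the start of its gene with upstream sequence, and each was also assigned to another annotated gene. These were ENSG00000225280 at NKX2-4, and ENSG00000289590 and NKX2-2-AS1 at NKX2-2. The PAX1 and FOXA2 fragments hold a start of a long non-coding RNA gene, LINC01726 and LINC00261.

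The 4 genes encode transcription factors of early development. NKX2-2 is a homeodomain factor of the ventral neural tube and of pancreatic endocrine cells, and NKX2-4 is a homeodomain factor related to the thyroid and forebrain factor NKX2-1. PAX1 is a paired-box factor of the sclerotome, from which the vertebrae form, and of the pharyngeal pouches, while FOXA2 is a forkhead pioneer factor of the floor plate, notochord and definitive endoderm. In PCHi-C, DNA that lies close together in the nucleus is ligated, and fragments with promoters are then enriched with complementary baits, so a listed interaction is a contact seen more often than its distance predicts.

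Sequences upstream of annotated starts on or near the baited fragments are given here. The capture baits themselves target the ends of the HindIII fragments. The promoter windows below are the 250 bases before an annotated start (RefSeq, GRCh38.p14), written 5′ to 3′ on the strand of the gene with each CpG dinucleotide in capitals. NKX2-4 had 1 entry (chr20:21397527-21397776, minus strand) and NKX2-2 had 2, the first at chr20:21522690-21522939 and the second at chr20:21512961-21513210, both on the minus strand. The promoter set used here is partial and held no entry for PAX1 or FOXA2. For those baits the windows of the long non-coding RNA genes that share the captured fragment are shown, LINC01726 beside PAX1 (chr20:21703586-21703835, minus strand) and LINC00261 beside FOXA2 (chr20:22578643-22578892, minus strand).
NKX2-4 promoter: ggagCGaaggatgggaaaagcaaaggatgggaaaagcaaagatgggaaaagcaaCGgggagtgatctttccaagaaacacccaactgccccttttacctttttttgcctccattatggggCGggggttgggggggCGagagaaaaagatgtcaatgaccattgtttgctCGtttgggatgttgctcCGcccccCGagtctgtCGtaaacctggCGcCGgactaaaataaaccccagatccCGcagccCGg
NKX2-2 promoter 1: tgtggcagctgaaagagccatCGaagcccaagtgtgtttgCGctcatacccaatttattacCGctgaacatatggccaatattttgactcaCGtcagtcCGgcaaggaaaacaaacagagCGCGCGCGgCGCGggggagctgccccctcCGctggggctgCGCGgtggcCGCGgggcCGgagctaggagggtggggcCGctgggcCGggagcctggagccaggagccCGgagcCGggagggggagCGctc
NKX2-2 promoter 2: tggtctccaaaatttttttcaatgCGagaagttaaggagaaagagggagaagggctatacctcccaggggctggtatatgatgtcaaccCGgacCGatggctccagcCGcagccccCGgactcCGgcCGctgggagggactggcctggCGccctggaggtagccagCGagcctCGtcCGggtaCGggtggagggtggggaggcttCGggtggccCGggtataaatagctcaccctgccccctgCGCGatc
LINC01726 promoter: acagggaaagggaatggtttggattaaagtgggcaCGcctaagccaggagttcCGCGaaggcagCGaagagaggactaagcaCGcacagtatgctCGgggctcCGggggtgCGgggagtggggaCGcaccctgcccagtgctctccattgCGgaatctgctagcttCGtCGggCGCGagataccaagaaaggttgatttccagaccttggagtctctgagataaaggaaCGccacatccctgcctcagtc
LINC00261 promoter: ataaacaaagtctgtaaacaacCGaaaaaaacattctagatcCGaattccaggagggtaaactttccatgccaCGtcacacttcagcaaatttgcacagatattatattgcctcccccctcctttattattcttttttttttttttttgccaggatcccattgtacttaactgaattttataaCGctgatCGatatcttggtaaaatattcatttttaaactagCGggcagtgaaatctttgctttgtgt

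The windows hold 12, 22 and 16 CpGs at NKX2-4 and at the first and second NKX2-2 start, against a median of 11 over 35116 RefSeq promoter windows, of which 93.9% hold at least 1 CpG (the dinucleotide reads the same on both strands). LINC01726 holds 15 and LINC00261 holds 6. The second NKX2-2 window lies on the baited fragment, and the first lies on a neighbouring fragment that was itself a primed partner. Over the whole baited fragments, the ratio of observed to expected CpG was 0.90 for NKX2-4, 0.67 for NKX2-2, 0.57 for PAX1 and 0.66 for FOXA2. All 4 were above 0.4, as were 38.5% of all listed baited fragments.

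Of the partners, 3 sequences (GRCh38, plus strand, at most the central 300 bases of the fragment) are shown because they stand for the 3 kinds of contact described below. The first (chr20:20860287-20860586) lies in an intergenic region that NKX2-2 contacted in both states, and it was the NKX2-2 partner with the highest naive score. The second (chr20:22397882-22398181) was a partner of FOXA2 in naive cells only. The third (chr20:22572817-22573116), beside FOXA2, was a partner of NKX2-4, NKX2-2 and PAX1 in primed cells only and had the largest H3K4me1 difference of all 66 partners.
NKX2-2 partner kept in both states: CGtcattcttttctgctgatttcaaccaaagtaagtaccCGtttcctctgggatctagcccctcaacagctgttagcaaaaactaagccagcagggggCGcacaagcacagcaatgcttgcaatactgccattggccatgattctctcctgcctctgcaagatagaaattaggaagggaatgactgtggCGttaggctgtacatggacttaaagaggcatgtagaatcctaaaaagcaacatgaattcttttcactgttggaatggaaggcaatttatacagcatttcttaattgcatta
FOXA2 partner listed in naive only: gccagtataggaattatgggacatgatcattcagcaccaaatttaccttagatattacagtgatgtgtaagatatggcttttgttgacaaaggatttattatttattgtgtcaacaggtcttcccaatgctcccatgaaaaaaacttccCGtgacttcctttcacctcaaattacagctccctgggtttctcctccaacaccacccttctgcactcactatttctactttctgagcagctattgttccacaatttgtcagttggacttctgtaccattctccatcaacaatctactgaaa
primed partner beside FOXA2: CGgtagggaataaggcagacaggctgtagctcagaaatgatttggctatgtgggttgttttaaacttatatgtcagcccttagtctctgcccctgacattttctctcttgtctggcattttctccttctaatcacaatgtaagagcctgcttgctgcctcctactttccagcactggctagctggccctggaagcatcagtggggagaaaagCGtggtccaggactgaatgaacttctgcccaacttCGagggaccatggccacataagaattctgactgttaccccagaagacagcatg

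These windows hold 4, 1 and 3 CpGs. Among whole partner fragments, 18 of the 44 listed only in primed cells had a CpG ratio above 0.4, against 0 of the 11 found in both states and 1 of the 11 listed only in naive cells. The median ratio was 0.27, 0.17 and 0.22 in these groups, and 0.22 over all 88413 listed fragments, of which 11.2% were above 0.4. Many of the primed-only partners are the baited promoters themselves or lie next to them, so these fragments are not independent of each other.

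The lists hold 79330 naive and 88985 primed interactions, with a median of 22 reads in each. Every one of the 4 baits had more listed interactions in primed than in naive cells. NKX2-4 had 8 in naive cells (95% exact Poisson interval 3.45 to 15.8) and 32 in primed cells (21.9 to 45.2). NKX2-2 had 7 (2.81 to 14.4) and 26 (17 to 38.1). PAX1, with the largest ratio of the 4, had 2 (0.24 to 7.22) and 32 (21.9 to 45.2). FOXA2 had 10 (4.80 to 18.4) and 28 (18.6 to 40.5), the smallest ratio. These intervals, and those of the ratios, cover counting error only and treat interactions as independent, although neighbouring fragments often enter together.

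Counting each pair of fragments once, the 4 baits had 27 interactions in naive and 112 in primed cells, a ratio of 4.15 (95% conditional binomial interval 2.71 to 6.57). Each bait had at least 2 times as many interactions in primed as in naive cells, as did 29.5% of all baited fragments. At least 26 primed interactions, the count of the lowest of the 4, were reached by 4.62% of baited fragments, whose median was 3 in each state. Of the 127 interactions, 12 were shared by both lists, 100 were primed-only and 15 were naive-only, and over the whole series 38.5% were primed-only and 31% naive-only. The lists hold no score under 5, so a pair called state-only may lie just under that limit in the other state. For its enhancer comparisons the paper accepted a lower score in a state where the other state passed. That rule could not be applied to these lists. Requiring at least 10 reads left FOXA2 with 10 naive and 18 primed interactions, a ratio of 1.80 whose interval, 0.79 to 4.36, includes 1.

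**Figure D1:**
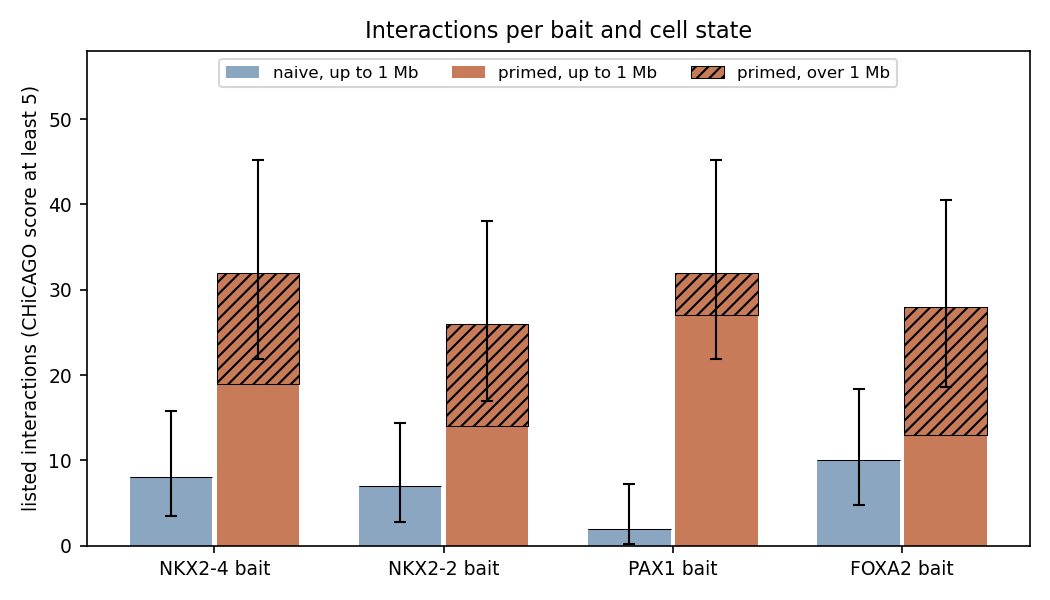
Listed interactions of each bait in naive and primed cells, with the part over 1 Mb hatched and error bars for the 95% exact Poisson interval of the total. All 4 primed bars, from 26 to 32, stand above the naive bars, from 2 to 10, and no naive bar has a hatched part.

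The primed contacts also spanned longer distances. The median distance between the middles of the fragments was 525.2 kb over the naive and 869.5 kb over the primed interactions of the 4 baits. The farthest naive contact was 689.9 kb from its bait (NKX2-2) and the farthest primed contact was 2218.8 kb (FOXA2). Long-range interactions, defined as over 1 Mb, numbered 0 in naive and 43 in primed cells. By bait these were 13 for NKX2-4, 12 for NKX2-2, 5 for PAX1 and 15 for FOXA2, with contacts between 2 of the baits counted at both. With at least 10 reads, FOXA2 had 6 of its 15 left and all 4 baits together 28. Over all baited fragments 3.55% had at least 1 long-range interaction in naive and 9.73% in primed cells, and 1.31% had at least 5 in primed and none in naive cells, as each of the 4 had.

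The baits contacted one another only in the primed list. None of the 6 possible pairs was listed in naive cells, and all 6 were listed in primed cells. Among all pairs of baited fragments on 1 chromosome at the distances spanned by these pairs, 4.79% were listed in naive and 4.69% in primed cells. The neighbours NKX2-4 and NKX2-2, 118.1 kb apart, had 108 reads and a CHiCAGO score of 11.87, the score being a log-scaled confidence weighted for distance, with 5 as the authors' threshold. NKX2-4 and PAX1 (306.1 kb) had 76 reads and a score of 17.13, and NKX2-2 and PAX1 (188 kb) had 111 reads and a score of 20.35. Each pair of baits has a score from either end, and the higher is given throughout. The contacts with FOXA2, the most distant of the 4, carried fewer reads but higher scores.

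PAX1 and FOXA2, 878.7 kb apart, had 50 reads and a score of 34.11, the highest of the 6 pairs. NKX2-4 and FOXA2 (1184.8 kb) had 29 reads and a score of 28.27, and NKX2-2 and FOXA2 (1066.7 kb) had 27 reads and a score of 24.4. Reads are values that the authors scaled and combined over replicates, and a pair of 2 baited fragments can be captured from either end, so reads of such pairs should not be set against those of other contacts. All 6 pairs had at least 10 reads in primed cells. Their lower end scores ranged from 9.62 (NKX2-4 and NKX2-2) to 23.04 (PAX1 and FOXA2), with 10.73 for NKX2-2 and PAX1.

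**Figure D2:**
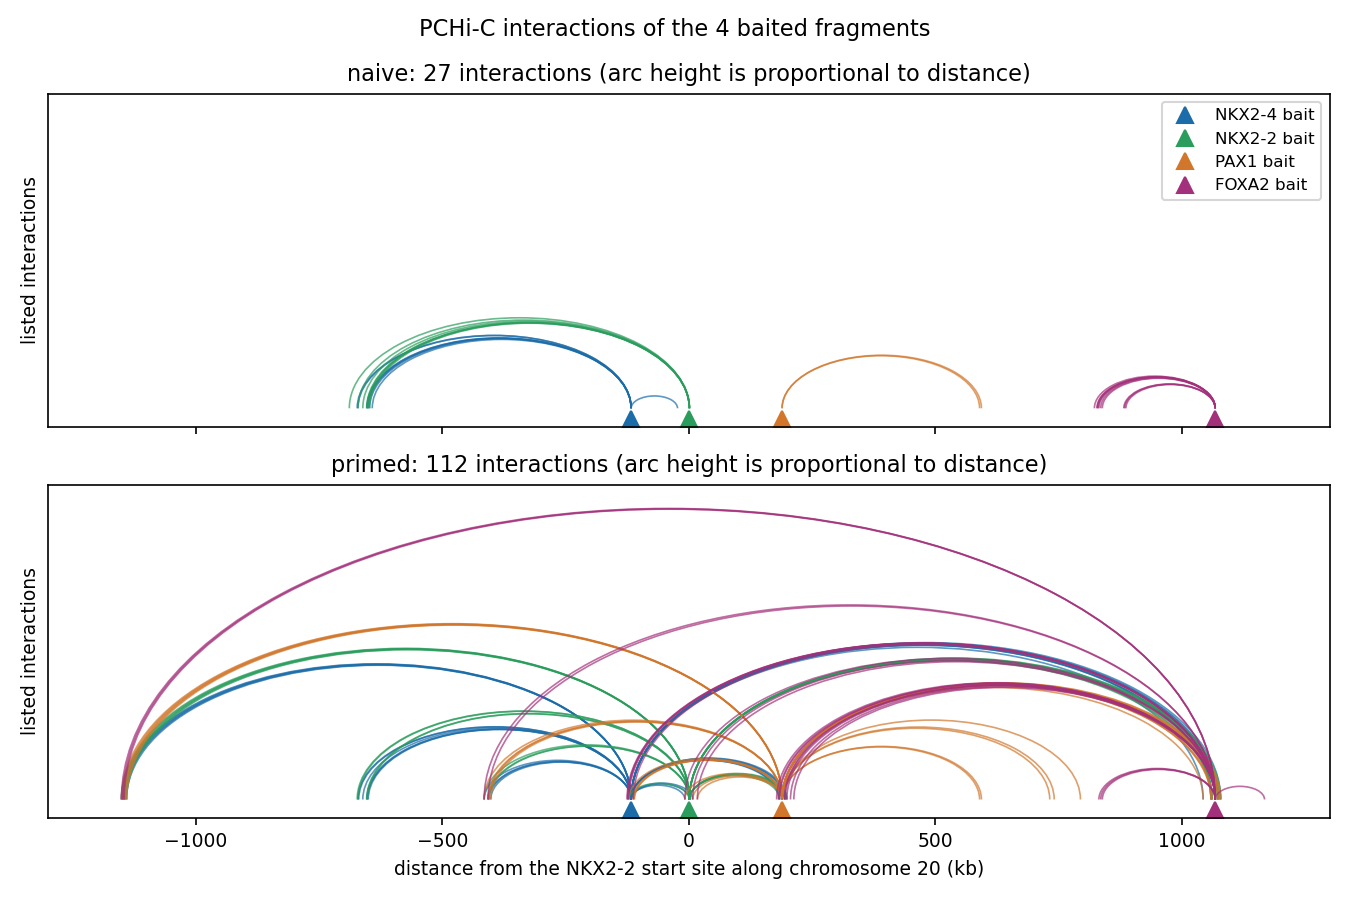
Interactions of the 4 baits along chromosome 20 as arcs, naive above and primed below, with the horizontal axis giving distance from the NKX2-2 start site in kb and arc height proportional to the distance spanned; an arc between 2 baits takes the colour of the one nearer the left. The 27 naive arcs fall into 3 separate groups, whereas the 112 primed arcs join all 4 baits and reach the INSM1 region at the left edge.

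The partner fragments, joined where the gap between them was at most 20 kb, formed 13 regions. One of them was a promoter outside the interval. The INSM1 region (chr20:20360895-20375836) holds INSM1, a zinc-finger transcription factor of neuroendocrine and pancreatic endocrine development, and had no interaction with any of the 4 baits in the naive list. In primed cells it had 18, of which 5 came from NKX2-4, 5 from NKX2-2, 5 from PAX1 and 3 from FOXA2. INSM1 was the only baited partner over 1 Mb away that was not one of the 4. Its own baited fragment went from 0 listed interactions in naive to 22 in primed cells, 18 of them over 1 Mb.

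The contact of the INSM1 bait with NKX2-2 had 38 reads and a score of 33.24, the highest score of any NKX2-2 partner. With NKX2-4 it had 29 reads and a score of 23.67, or 15.92 from the other end. With PAX1 it had 21 reads, and with FOXA2 11. The INSM1 bait lay 1028.6 kb from NKX2-4, 1146.7 kb from NKX2-2, 1334.7 kb from PAX1 and 2213.4 kb from FOXA2.

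A second region listed with all 4 baits in primed cells only surrounds LINC00237, a long non-coding RNA gene (chr20:21092258-21115806), with 0 naive and 13 primed interactions. NKX2-4 had 4 of these, NKX2-2 had 3, PAX1 had 4 and FOXA2 had 2. The regions around the baits themselves followed the same course. The region around FOXA2 (chr20:22541925-22594745) took 24 primed interactions from the other 3 baits and none in naive cells, and the region around PAX1 (chr20:21689384-21727873) took 20 and none. The region around NKX2-4 (chr20:21387575-21404547) took 13 and none, and that around NKX2-2 (chr20:21490860-21538009) took 11 in primed and 1 in naive cells.

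FOXA2 met PAX1 through several neighbouring fragments. Its 2 primed partners of highest score, both at PAX1, had scores of 34.53 and 34.11 with 39 and 50 reads, and another fragment at PAX1 had 33.14 with 29 reads. PAX1 in turn had its highest scores, 34.53, 34.11 and 29.56, with 3 fragments at FOXA2. For NKX2-4 the 5 top primed partners were the FOXA2, INSM1 and PAX1 baits and fragments beside FOXA2 (16.60) and within PAX1 (15.63). For NKX2-2 they were the INSM1 bait, a fragment beside FOXA2 (27.37), the FOXA2 bait, the PAX1 bait and a fragment beside INSM1 (20.09). By the lower end score, the fragment beside FOXA2 would stand above INSM1 for NKX2-4. The PAX1 bait, with lower end scores of 11.1 and 10.73, would leave both lists for a fragment at LINC00237 (13.68 and 18.17).

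Some naive contacts were kept. NKX2-4 and NKX2-2 both contacted an intergenic region (chr20:20823932-20875379), 111288 bp from the nearest protein-coding gene, RALGAPA2. It had 14 interactions with the 2 baits in naive and 10 in primed cells. NKX2-4 had 7 naive interactions there with 99 reads in all and 6 primed ones with 91 reads, and NKX2-2 had 7 with 87 reads and 4 with 61 reads. All but 1 of the 15 naive interactions of these 2 baits ended in this region. PAX1 likewise kept both of its naive partners, in an intergenic region 382394 bp past the end of the gene (chr20:22100875-22108268), with 58 reads in naive and 59 in primed cells.

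Most naive partners of FOXA2 were not listed in primed cells. By exact fragment pair, 4 of the 8 naive interactions of NKX2-4, 4 of the 7 of NKX2-2 and 0 of the 2 of PAX1 were naive-only. In naive cells FOXA2 contacted 7 fragments of an intergenic region (chr20:22332312-22354585) with 147 reads, and in primed cells 3 of them with 56 reads. These 3 had 22, 29 and 21 reads in naive and 19, 18 and 19 in primed cells. Pairs that are not listed have no read number, so the 2 sums cover unlike numbers of fragments. A further 3 fragments nearer to the gene (chr20:22394843-22401448), with 71 naive reads, had no listed primed interaction. The highest naive scores of FOXA2 were 11.52 and 11.44, and 7 of its 10 naive interactions were naive-only. Where both ends were allowed to lie within 10 kb, 7 of the 10 had a primed counterpart, and over the 4 baits the shared naive interactions numbered 22 instead of 12.

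As a network, the naive contacts fell into 3 separate groups around the 4 genes. NKX2-4 and NKX2-2 shared a connected group of 13 fragments joined by 16 interactions, PAX1 was in a group of 3 fragments with 2 interactions, and FOXA2 in a group of 15 fragments with 14 interactions. In primed cells all 4 were in 1 group of 116 fragments and 219 interactions, which held 24 baited fragments and ran along chromosome 20 from 19786914 to 23660526. That group also included the promoters of THBD, SSTR4 and CD93, which lie just past the 23 Mb end of the interval.

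The sets of primed partners overlapped most between the 2 NKX2 genes. NKX2-4 and NKX2-2 had 22 partners in common, a Jaccard index (shared over all partners) of 0.61. The index was 0.45 for NKX2-4 and PAX1, with 20 in common, and 0.41 for NKX2-2 and PAX1, with 17. Among all baited fragments with at least 5 primed partners, those whose partners were most like FOXA2's were INSM1 (0.39, 14 in common), NKX2-4 (0.30, 14) and NKX2-2 (0.29, 12). For the other 3 baits, too, the most similar were members of this group or INSM1. Baits near each other can share partners through nearness alone, and this was not tested.

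Hi-C, which uses no capture, gave a second reading of these contacts in primed cells in bins of 100 kb. Values are di-tag counts and the ratio of the balanced count to the mean of chromosome 20 bin pairs at the same distance. All 3 pairs with FOXA2 were above expectation. NKX2-4 and FOXA2 had 51 di-tags and a ratio of 2.86 (95% Poisson interval 2.13 to 3.76), above 96.3% of 565 bin pairs at that distance. NKX2-2 and FOXA2 had 61 and a ratio of 2.50 (1.91 to 3.21), and PAX1 and FOXA2 had 70 and a ratio of 2.40 (1.87 to 3.03). With the expected value taken from all autosomes these ratios were 2.00, 1.80 and 1.68. The bin pairs surrounding each of the 3 were also raised, with median ratios of 1.54, 1.61 and 1.63 in the same order. The FOXA2 bin also had a ratio of 2.11 with the intergenic region contacted by the NKX2 baits, where FOXA2 had no listed interaction. Whether the raised ratios are particular to these bins was not tested.

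The 3 pairs within the NKX2-4 to PAX1 stretch were not above expectation in the same library. NKX2-4 and PAX1 had 47 di-tags and a ratio of 0.40 (0.30 to 0.54), and NKX2-2 and PAX1 had 145 and a ratio of 0.59 (0.50 to 0.69). NKX2-4 and NKX2-2 had 226 and a ratio of 0.78 (0.68 to 0.89), which was 1.33 without balancing. For these 3 pairs PCHi-C and Hi-C thus differed, and the cause was not tested. In both kinds of pair a bin holds many HindIII fragments besides the bait.

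The INSM1 bin was above expectation with all 4. Its ratio was 1.89 with NKX2-4 (60 di-tags), 2.69 with NKX2-2 (60), 1.71 with PAX1 (25) and 3.09 with FOXA2 (17). The intergenic region kept by the NKX2 baits in both states had a primed ratio of 3.45 with NKX2-2, rank 3 of 575 pairs at that distance, and 2.15 with NKX2-4. Its naive di-tag counts were 192 and 172, beside 200 and 214 in primed cells, from libraries of 389302 and 732469 di-tags on chromosome 20 as listed. The naive file listed far fewer bin pairs (3101 on chromosome 20 against 66353), and the pairs of the 4 baits with INSM1 and with FOXA2 were not among them, so no naive value can be given and none is read as 0. NKX2-4 with NKX2-2, 222 di-tags, and NKX2-2 with PAX1, 104 di-tags, were listed in naive cells.

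**Figure D3:**
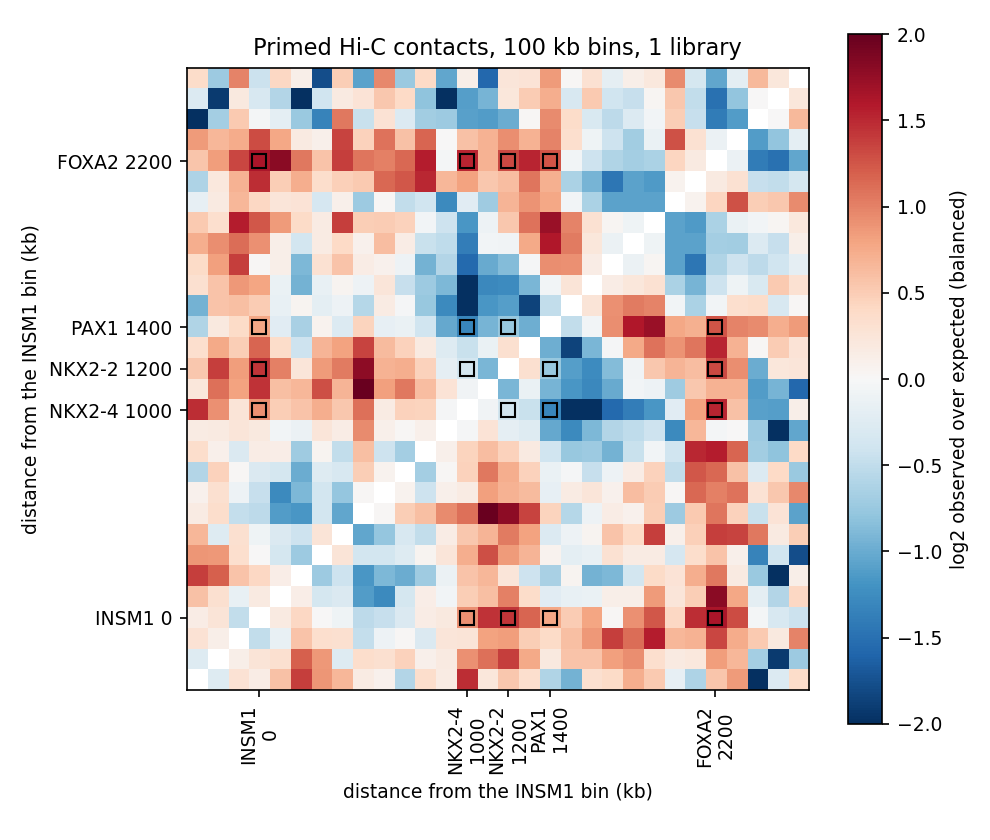
Primed Hi-C contacts around the interval as log2 of observed over expected, in 100 kb bins, with both axes giving distance from the INSM1 bin in kb and open squares marking the pairs among INSM1 and the 4 genes. Squares that join FOXA2 or INSM1 with the others are red (above expectation) and the 3 pairs among NKX2-4, NKX2-2 and PAX1 are blue.

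H3K4me1 was higher in primed cells at the PAX1 and FOXA2 baits, and the differences at the NKX2 baits did not pass. Whether the baits differ from one another in this was not tested. Values are the mean log2 RPM (reads scaled to library size) of the 500 bp tiles of a fragment, and the test was limma over all 88413 listed fragments with Benjamini-Hochberg adjustment, of which 9.81% were higher and 15.2% lower in primed cells. Of the baited fragments among them, 7.66% were higher and 18.1% lower. At PAX1 the naive libraries had -2.80 and -2.48 and the primed libraries -0.34, -0.73 and -0.35. All 3 primed libraries lay above both naive ones, with a difference of 2.17 (SE 0.36), a 4.49-fold change, and a limma adjusted p of 2.7e-06.

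At FOXA2 the naive libraries had -1.28 and -0.84 and the primed libraries 0.28, -0.09 and -0.09, again without overlap. The difference was 1.09 (SE 0.37), or 2.13-fold, with a limma adjusted p of 0.020. This call depended on the libraries, since the adjusted p was 0.30 without naive replicate 1, 0.076 without naive replicate 2 and 0.054 without primed replicate 3 in limma, and with the replicate number as a block it was 0.059. Over the alternatives that gave a value the adjusted p ranged from 0.0024 (edgeR on recovered reads) to 0.30. The FOXA2, PAX1 and NKX2-4 baits did not reach a log2 RPM above 0 in 2 libraries, so a filter at that level gave no value for them.

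NKX2-2 carried the most H3K4me1 of the 4 baits in both states, with 0.13 and 0.48 in the naive and 0.43, 0.39 and 0.18 in the primed libraries. The libraries of both states overlapped, and the difference was 0.03 (SE 0.38, limma adjusted p 0.98). NKX2-4 had low values throughout, -2.30 and -1.97 in naive and -1.71, -1.51 and -1.81 in primed libraries. The difference of 0.46 (SE 0.36) did not pass (limma adjusted p 0.43), although the libraries did not overlap. The order of the primed means was NKX2-2 (0.33 ± 0.13, SD, n = 3), FOXA2 (0.03 ± 0.22), PAX1 (-0.47 ± 0.22) and NKX2-4 (-1.68 ± 0.15), and the primed libraries of NKX2-2 and FOXA2 overlapped, whereas those of the other neighbours in this order did not. INSM1 had -0.32 and -0.74 in naive and -0.22, -0.34 and -0.35 in primed libraries, a difference of 0.23 with a limma adjusted p of 0.78.

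**Figure D4:**
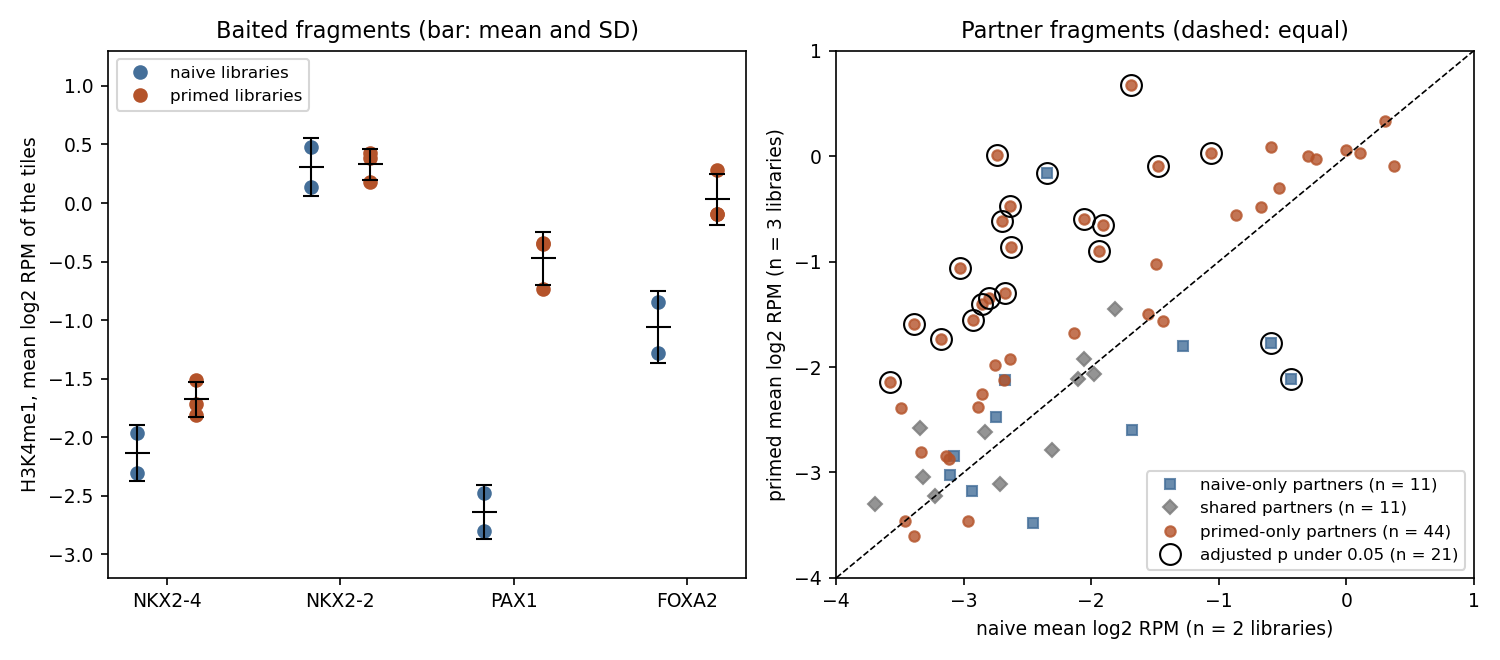
Left, mean log2 RPM of H3K4me1 over each baited fragment, 1 point per library (2 naive, 3 primed) with mean and SD; right, naive against primed mean for the 66 partner fragments by the state in which they were listed, with a dashed line of equality and open circles for the 21 with a limma adjusted p under 0.05. PAX1 and FOXA2 primed points lie above the naive ones, and 19 of the 21 circled partners lie above the line.

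Within 5 kb of the start sites the tiles showed where the signal lay. All 6 PAX1 tiles that could be tested were higher in primed cells, as were 4 of 11 at FOXA2, 2 of 16 at NKX2-2 and 0 of 3 at NKX2-4, and none was lower. Across all tiles tested, 25.9% were higher and 26.1% lower in primed cells. A tile was tested only with log2 RPM above 0 in at least 2 libraries, which a tile high in 1 state alone also meets, so these counts describe and do not support a difference. At NKX2-2, 1 of the 2 tiles covers the start site (chr20:21514001-21514500), with -1.28 and -1.75 in naive and 0.94, 0.19 and 0.12 in primed libraries. It entered the test through its primed libraries alone, so its call, too, is only a description.

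**Figure D5:**
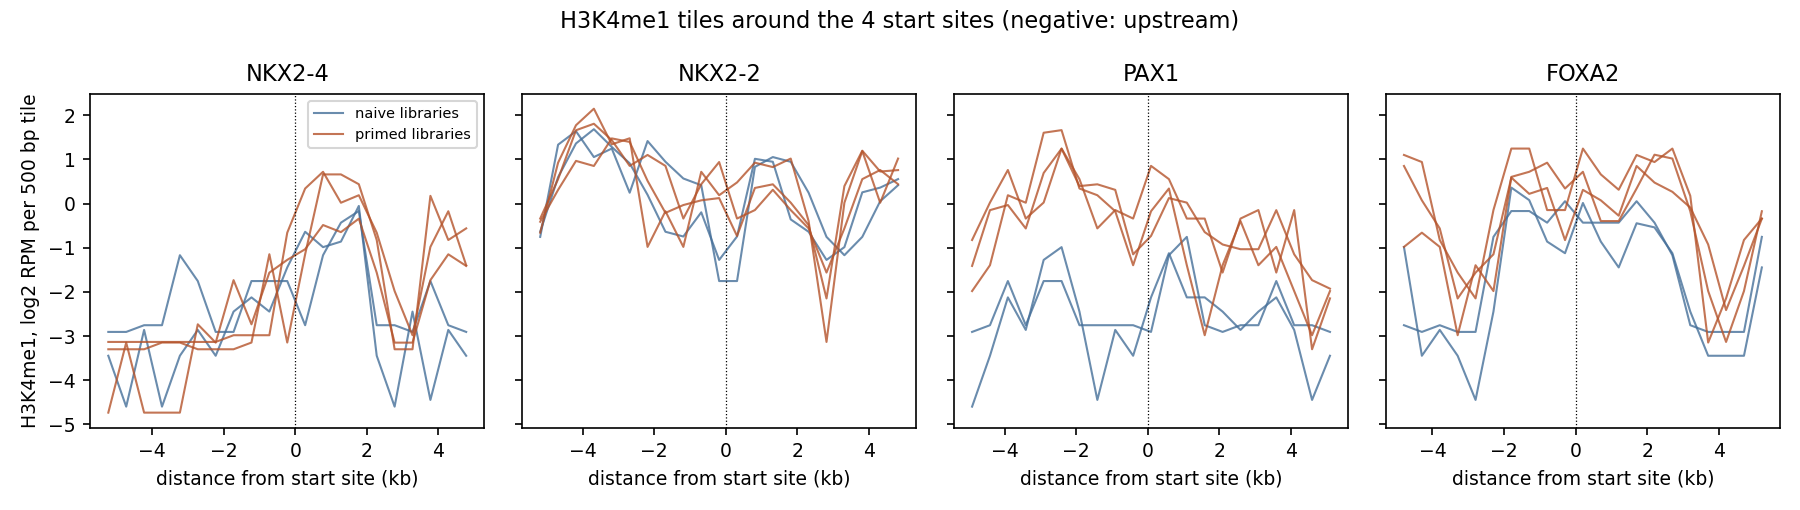
H3K4me1 in 500 bp tiles within 5 kb of the start site of each gene, in log2 RPM against distance in kb in the direction of transcription, 1 line per library. At PAX1 the 3 primed lines run above the 2 naive lines over most of the window, at FOXA2 they run above them over much of it, and at NKX2-2 the lines of both states cross repeatedly, with the naive lines lower at the start site.

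Among the partner fragments, most calls were in those listed only in primed cells. Of the 66 partners, 19 were higher and 2 lower in primed cells, where over all listed fragments 9.81% were higher and 15.2% lower. All but 1 of the 19 were among the 44 primed-only partners, of which 18 were higher and 0 lower, with a median difference of 0.64. None of the 11 partners found in both states passed the test in either direction (median difference 0.13), and of the 11 naive-only partners 1 was higher and 2 were lower (median -0.24), close to the shares over all fragments. The other 26 primed-only partners did not pass. The median over all listed fragments was -0.06. Without naive replicate 1 the partners higher in primed cells numbered 8 instead of 19, while over all 88413 fragments those higher numbered 3154 instead of 8674. Without naive replicate 2 no partner was lower, while over all fragments those lower numbered 7707 instead of 13462. Neighbouring partner fragments share chromatin, and short ones share a tile, so their number is not a number of independent sites.

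The rise was uneven between regions. Around FOXA2, 8 of 9 partner fragments were higher in primed cells, and around PAX1 6 of 9 were. At the INSM1 region 0 of 5 and at LINC00237 0 of 4 changed in either direction. The INSM1 fragments already had a naive median of -0.01 against -0.09 in primed cells, and LINC00237 had -1.15 against -1.03. Of the 10 fragments in the intergenic region kept by the NKX2 baits, 1 was higher and 1 lower.

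The 5 partners with the largest increase were 3 fragments beside FOXA2, the PAX1 bait and 1 fragment near NKX2-2. The fragment at chr20:22572438-22573495, within LINC00261 on the side of FOXA2, had -3.25 and -2.23 in naive and 0.11, 0.41 and -0.50 in primed libraries, a difference of 2.75 (SE 0.37, limma adjusted p 3.9e-08). The fragment at chr20:22589750-22590896, upstream of FOXA2, had -1.57 and -1.80 in naive and 1.23, -0.12 and 0.92 in primed libraries, a difference of 2.36. A neighbouring fragment at chr20:22590897-22594745 differed by 2.08. In all 3 the primed libraries lay above the naive ones.

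One naive partner went against the pattern. The fragment at chr20:21490860-21491047, between NKX2-4 and NKX2-2, was listed with NKX2-4 in naive cells only. That listing had 55 reads and a score of 5.01, just above the threshold of 5. Its H3K4me1 was -2.65 and -2.04 in naive and -0.40, 0.01 and -0.10 in primed libraries, a difference of 2.18 (SE 0.36, limma adjusted p 2.9e-06). The fragment is shorter than a tile, so these values average 2 tiles that extend beyond it. Only 2 partners fell. The FOXA2 partner at chr20:22397730-22398333, whose sequence is given above, had -0.69 and -0.17 in naive and -2.43, -1.19 and -2.73 in primed libraries, a fall of 1.69 with a limma adjusted p of 0.00046. The fragment at chr20:20823932-20826359, contacted by NKX2-2 in naive cells only, fell by 1.18 (limma adjusted p 0.0092).

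Just past the end of the interval, the promoters of THBD, SSTR4 and CD93 had no long-range interaction in either state. THBD, the endothelial thrombin receptor, had 5 naive and 19 primed interactions, and its H3K4me1 was higher in primed cells by 1.35 (limma adjusted p 0.0033). SSTR4, a somatostatin receptor, had 0 and 1, and CD93, a lectin-like receptor of endothelial and myeloid cells, had 2 and 2. No captured XRN2 fragment was listed.

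Genes that act with these 4 in development were drawn from 3 lists. In the ventral neural tube list, 18 of 20 genes had a baited fragment in the lists (20 fragments), of which 15 had at least 2 times as many interactions in primed cells, and the median went from 4 to 19. In the endoderm and pancreas list 13 of 16 genes had one, 10 of 13 fragments met that mark and the median went from 2 to 7. In the sclerotome list all 13 genes had one, 7 of 14 fragments met it and the median went from 4.5 to 9. Over all baited fragments 29.5% met it and the median was 3 in each state. At least 1 long-range primed interaction was listed for 15 of the 20, 6 of the 13 and 6 of the 14 fragments, against 9.73% of all baited fragments.

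Among genes close in kind to the 4, NKX2-1 had 20 naive and 63 primed interactions, 21 of the latter over 1 Mb. FOXA1, the paralog of FOXA2, had 7 and 34 with 16 over 1 Mb, and PAX9, the paralog of PAX1, had 2 and 31 with 1 over 1 Mb. SHH, the signal that patterns the ventral neural tube, had 8 and 16 with 4 over 1 Mb, NKX6-1 had 16 and 35 with 14, and SOX17, an endoderm factor, had 4 and 18 with 6. H3K4me1 was higher in primed cells at 8 of the 20, 4 of the 13 and 0 of the 14 fragments and lower at none of them. Over all listed baited fragments 7.66% were higher and 18.1% lower, and over all listed fragments 9.81% were higher and 15.2% lower. H3K4me1 rose at FOXA1 by 1.52 (limma adjusted p 0.00085) and at SHH by 1.37 (limma adjusted p 0.0032). At NKX2-1 the difference was -0.31 and at PAX9 0.66, and neither passed (limma adjusted p 0.66 and 0.24).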

How the data were processed

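Processed files were used as deposited (GRCh38). Per the labels, H3K4me1 reads were trimmed with Trim Galore 0.5.0 and aligned with Bowtie2 2.3.2, and the authors deposited log2 RPM per 500 bp tile. The PCHi-C lists deposited by the authors give a scaled read number and a CHiCAGO score (at least 5) per fragment pair, from HiCUP-filtered di-tags of 2 combined replicates. Hi-C files hold deposited di-tag counts per pair of 100 kb bins.

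Pairs listed from both ends were merged, and bait totals were compared with exact Poisson and conditional binomial intervals. Hi-C bins were balanced and divided by the chromosome 20 mean at each distance. Column 4 of the lists holds a bait mark and no names, so genes were assigned from GENCODE v44. Library depth, recovered from the step of 1 read, was 6743810 to 26596500 reads; an empty tile is listed at its library's floor (-4.89 to -2.91), and 100% of low values were whole reads (tolerance 0.01). H3K4me1 was tested with limma 3.58.1 (R 4.3.3), primed minus naive, and was also run with edgeR 4.0.16 on recovered reads. The step was tested on simulated data. P-values measure the spread between these libraries, which the paper describes as biological replicates and which all come from a single cell line.

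Members, gene lists and the rule for named genes (the members, their 5 best-scoring partners, baited partners over 1 Mb, the 5 largest H3K4me1 differences each way, 3 most similar baits) were chosen with earlier results of these data known. NANOG, SOX2 and input samples were not analysed here.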

Additional observations from a re-analysis of the deposited data

How the results depend on the processing

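The larger number of primed interactions kept its direction under every alternative run for the 4 baits together. The ratio of primed to naive interactions was 7.55 with the score limit raised to 7 and 11 with it raised to 10, where 4 and 2 interactions were shared; sharing within 10 kb gave 22. Primed interactions over 1 Mb numbered 21 with the score limit at 10 and 28 with at least 10 reads, 77 with a limit of 0.5 Mb (14 in naive cells) and 3 with a limit of 2 Mb. In Hi-C, 0 of the 6 pairs exceeded 2 times the expectation from all autosomes, against 3 in chromosome 20, and NKX2-4 with NKX2-2 was 1.33 before balancing.

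For H3K4me1, keeping only fragments above 0 log2 RPM in at least 2 libraries left 7 of the 66 partners, of which 2 were higher and 0 lower in primed cells, since fewer fragments were tested. Leaving out 1 library at a time gave 8 to 18 partners higher and 0 to 3 lower, beside 3154 to 9412 and 7707 to 14718 of all 88413 fragments. It gave 101 to 145 interval tiles higher and 7 to 32 lower, beside 88520 to 137482 and 65896 to 134820 of all 465156 tested tiles. Without a filter the 4000 interval tiles gave 287 higher and 64 lower, beside 233664 and 259041 of all 6176584 tiles. The NKX2-2 difference, near 0, was -0.15 without naive replicate 1, -0.02 without primed replicate 1 and -0.00068 without primed replicate 2. The cause of these shifts was not tested beyond this. edgeR on recovered reads gave 17 partners higher and 2 lower. The replicate numbers were not taken to pair the libraries. Deviations from the state means correlated at 0.081 and 0.20 for the 2 shared numbers. With 2 naive libraries their deviations mirror each other, so this cannot show whether libraries were paired. With the replicate number as a block 19 partners were higher and 2 lower, and 123 interval tiles were higher and 19 lower. The share of empty tiles was 15.3% to 52.3% per library, highest in the shallowest library, naive replicate 2; how far depth limits low fragments was not tested.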

Other observations

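H3K4me1 also differed in parts of the interval that were not listed as partners. Between 21 and 23 Mb, 315 of 4000 tiles could be tested, and 136 were higher and 27 lower in primed cells by limma, against 25.9% higher and 26.1% lower over all tiles tested. A tile enters the test also when it is high in 1 state alone, so these counts are a description. Of the called tiles, 54 of the 136 and 2 of the 27 lay on partners or baits, beside 124 of all 315 tested tiles. The longest stretch of higher tiles outside any partner was chr20:21213001-21220000, 12 tiles in a 7 kb window 177.5 kb from the NKX2-4 start. Its tiles averaged -2.06 and -1.88 log2 RPM in naive and 1.15, 0.14 and 1.05 in primed libraries. Another, chr20:22231001-22234500, had 6 tiles with averages of -3.42 and -2.88 in naive and 0.45, 0.29 and 0.48 in primed libraries. In the other direction, 3 tiles at chr20:21060001-21061500 averaged 1.10 and 0.97 in naive and -2.91, -2.55 and -3.01 in primed libraries, with no listed contact to any of the 4 genes. The longest stretch of all, 16 tiles at chr20:22556001-22564500 within LINC00261, lay on a partner fragment beside FOXA2 and averaged -3.41 and -2.43 in naive and 1.18, 0.45 and 0.92 in primed libraries. Stretches join called tiles with gaps of at most 1 kb and were chosen after their values were seen.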
